A study of Mus musculus with 6 samples.

Results

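The genes described here serve transport and homeostasis in Müller glia, the radial glial cells that span the retina, and were followed in BALBc mouse retinas after light damage. There were 10 member genes, and they were read by every probe set of the value table that the platform annotation assigns to 1 of them alone, which gave 24 of 45037 probe sets. A further probe set, shared by Slc1a2 and Gm13872, was left out of the members. The study compared 3 light damaged with 3 dark adapted retina RNA samples, each on 1 Affymetrix array, on which short oligonucleotides grouped in probe sets read each transcript. All mice were BALBc, an albino inbred strain, and all were kept in the dark for 1 week. The light damaged mice were then placed under white fluorescent light (6000 lux, 6 h) and their retinas were taken 24 h later, while the dark adapted mice received no such exposure. Age, sex, the number of animals behind each RNA sample and the time at which control retinas were taken are not given in the labels. Nothing in the labels says that replicates are separate animals, so all p-values refer to the spread among these 6 samples, part or all of which may be technical.

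Müller glia take up the glutamate that neurons release, turn it into glutamine, and carry water, potassium, bicarbonate and small solutes between the retina, the vitreous and the vessels. Glutamate enters through carriers of the SLC1 family and is converted by glutamine synthetase, water crosses aquaporins, and carbonic anhydrases interconvert carbon dioxide and bicarbonate. Not every member is restricted to these cells: in the rodent retina Aqp1 is known from photoreceptors and some amacrine cells, and Slc1a2 mainly from bipolar cells and cones. Slc14a1 and Aqp1 are also abundant in red blood cells, and Car2 in oligodendrocytes and red blood cells.

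After light damage the members did not move as 1 group. RNA of Slc14a1, the urea transporter UT-B, was higher by 2.17 ± 0.13 on the log2 scale (SE, n = 3 arrays per group), a 4.49-fold rise. RNA of Glul, glutamine synthetase, was lower by 2.35-fold and 1.98-fold on its 2 probe sets, of which the first passed the test; in whole retina RNA, fewer cells of a type and less RNA per cell cannot be told apart. RNA of the water channel gene Aqp1 was lower by 2.18-fold. That of the glutamate carrier gene Slc1a3 was higher by 1.48-fold to 1.62-fold on its 4 brightest probe sets. Slc14a1 and the first Glul probe set passed with and without pairing arrays of the same replicate number. The calls of the second Glul probe set, of Aqp1 and of Slc1a3 were reached when such arrays were treated as pairs. Aqp1 and the second Glul probe set also passed after other scalings, but not in the fits without pairs that left out any 1 array. In these 6 fits the first Glul probe set passed in 1, and both Slc14a1 probe sets passed in all 6. Slc1a2, Aqp4, Car2, Car14, Abca8a and Dkk3 did not pass in either fit.

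Values are log2 expression values from RMA (robust multi-array average), and a difference of 1 is a doubling. Probe sets were tested with limma over all 45037 and called at an adjusted p under 0.05 (Benjamini-Hochberg). By this rule 2 of the 24 member probe sets were higher, 1 was lower and 21 did not pass, where 411 of all probe sets were called higher (0.913%) and 47 lower (0.104%), together 1.02%. Normalizing by quantiles again gave 402 higher and 167 lower, and centring on 6 reference genes 241 and 143. One of these, Actb, was itself higher in light damaged retinas (0.70, limma adjusted p = 0.14, and 0.0354 with the replicate block), and centring without it gave 307 and 99. Both groups carry replicate numbers 1 to 3 in the titles, and arrays of the same number deviated together from their group means (r = 0.731, 0.618 and 0.432 over probe sets). With this number as a block, 6 member probe sets were higher and 3 lower, beside 3.48% and 1.2% of all probe sets, together 4.68%. In 5 member probe sets all light damaged values lay above all dark adapted ones, in 3 they lay below, and in 16 the groups overlapped; over all probe sets the groups stood apart upwards in 8.99% and downwards in 4.21%. The median change was 0.00 over the 24 member probe sets and 0.01 over all probe sets.

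**Figure D1:**
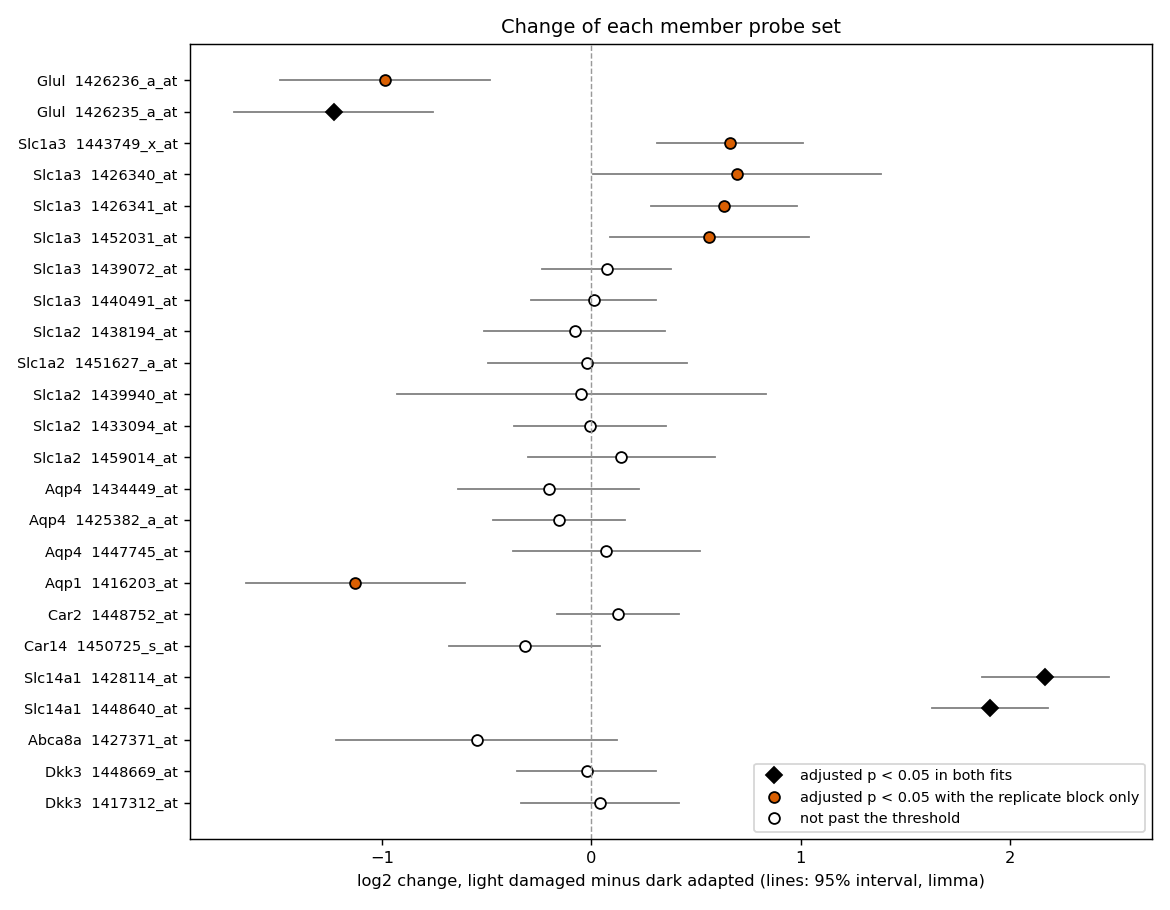
Log2 change (light damaged minus dark adapted) of the 24 member probe sets with 95% intervals from limma; the fill gives the call. The 2 Slc14a1 probe sets stand alone on the right, at 2.17 and 1.90, and Glul and Aqp1 lie on the left, between -1.23 and -0.99.

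The array medians ran from 6.15 to 6.18 and the upper quartiles from 7.41 to 7.67, with both replicate 1 arrays at the top (7.67 and 7.65). Retina markers were bright: the 6 measured rod markers averaged 11.64 to 12.06 on light damaged and 12.12 to 12.61 on dark adapted arrays. Lens genes were bright as well, averaging 10.31 to 11.59 on light damaged and 10.42 to 11.79 on dark adapted arrays over 7 genes, of which none passed and Bfsp1 fell with the block (-1.12); their part in the results was not tested. Of 8 endothelial markers none passed, with changes between -0.24 and 0.27 (Pecam1). All 10 reactive glia genes rose, with a median change of 2.55, among them Gfap, the intermediate filament of activated glia (1.75). This list was chosen with earlier results of these data known, so its rise is not an independent result. Of 14 measured Müller glia markers that are no members, Vim (vimentin) rose by 1.67 and 13 did not pass; with the replicate block 4 rose. Vim is also one of the 10 reactive glia genes. The 14 markers averaged 8.99 to 9.29 on light damaged and 8.59 to 8.99 on dark adapted arrays, with a median change of 0.31. They were split, with 9 positive and 5 negative changes. In the lists for other cell types, 2 of 6 astrocyte genes rose (Gfap and Aldh1l1, an astrocyte enzyme, 2.27) and 4 did not pass. Gfap is the same probe set as in the reactive glia list, so it is counted in both. Of 7 microglia genes 1 rose (Cd68, 1.88). P2ry12, a receptor gene of resting microglia, was lower without overlap (-0.48, limma adjusted p = 0.289) and fell with the block (limma adjusted p = 0.0394). None of 9 pigment epithelium, 6 oligodendrocyte and 8 amacrine and horizontal cell genes passed with or without the block. The part of these markers in the members' changes was not tested.

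Glutamate handling was read by 13 of the 24 probe sets. Glul encodes the enzyme that condenses glutamate with ammonia to glutamine, and in the retina it is a defining enzyme of Müller glia. Its brighter probe set, 1426236_a_at, read 11.44, 10.70 and 10.96 on the light damaged arrays (replicates 1 to 3), against 12.30, 11.90 and 11.86 on the dark adapted ones. Its other probe set, 1426235_a_at, read 9.41, 9.03 and 9.24 on light damaged arrays, against 10.74, 10.59 and 10.04 on dark adapted arrays. On both, every light damaged value lay below every dark adapted value. The changes were -0.99 ± 0.22 (SE, limma adjusted p = 0.109) and -1.23 ± 0.21 (SE, limma adjusted p = 0.0416). With the replicate block both fell (limma adjusted p = 0.00483 and 0.00675). Probe set 1426236_a_at also passed after repeated quantile normalization (limma adjusted p = 0.0219) and reference centring (0.0235, and 0.0333 with Actb left out). The mean of the 2 probe sets passed too (limma adjusted p = 0.0246). With 1 probe set per gene, above the median level and with an intensity trend 1426236_a_at did not pass (limma adjusted p = 0.0652, 0.0682 and 0.137). The call of 1426235_a_at was lost without any 1 of the 3 light damaged arrays (limma adjusted p = 0.105, 0.169 and 0.203) and without dark adapted replicate 1 or 2 (limma adjusted p = 0.0837 and 0.187).

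Slc1a3 encodes GLAST, the main glutamate carrier of Müller glia. Its brightest probe set, 1443749_x_at, read 9.73, 9.55 and 9.96 on light damaged arrays, against 9.21, 8.93 and 9.10 on dark adapted arrays. The next, 1426340_at, read 9.52, 8.73 and 9.19 on light damaged arrays, against 9.06, 8.14 and 8.15 on dark adapted arrays. The groups stood apart on the first and overlapped on the second, where both replicate 1 arrays were high. Probe sets 1426341_at and 1452031_at also stood apart, with changes of 0.63 ± 0.15 and 0.56 ± 0.20 (SE), beside 0.66 ± 0.15 and 0.70 ± 0.30 for the first pair. None of these 4 passed limma without the block (adjusted p = 0.124 to 0.561), and all 4 rose with it (adjusted p = 0.0181 to 0.0319). No other setting called any of the 4. After reference centring their changes were 0.39 to 0.53 (limma adjusted p = 0.406 to 0.618). With 1 array left out the changes ran from 0.41 to 1.00 (limma adjusted p = 0.137 to 0.9997). Within the same-numbered pairs the differences of the 4 probe sets were all positive, between 0.47 and 1.04. The remaining probe sets, 1439072_at and 1440491_at, had means of 5.59 and 4.18 on light damaged and 5.51 and 4.17 on dark adapted arrays, and changes of 0.07 and 0.01. The dimmer of them read under the lower quartile on all 6 arrays.

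Slc1a2 encodes GLT-1, the carrier that dominates glutamate uptake in the brain. Its brightest probe set, 1438194_at, read 10.29, 9.96 and 9.98 on light damaged arrays, against 10.51, 9.97 and 9.98 on dark adapted arrays. Replicates 2 and 3 were almost equal between the groups, which overlapped. The change was -0.08, with a 95% interval of -0.51 to 0.35 (limma adjusted p = 0.978). The changes of the other 4 probe sets lay between -0.05 and 0.14 and none passed with or without the block. Intervals reached the size of the Slc1a3 changes on 1439940_at (-0.93 to 0.83) and 1459014_at (-0.30 to 0.59), and stayed below it on the other 3.

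Glul and Slc1a3 were set against each other within arrays, which removes what an array has in common. This difference, like the 2 further ones below, restates the changes of its 2 members. The 3 pairs of genes were chosen with earlier results of these data known. How often other pairs of genes stand apart was not tested. The log2 value of Glul minus that of Slc1a3 was 1.71, 1.15 and 1.01 on light damaged arrays, against 3.08, 2.97 and 2.76 on dark adapted arrays. The groups stood apart, and the difference narrowed by 1.65 (mean 1.29 ± 0.37 in light damaged and 2.94 ± 0.16 in dark adapted retinas, SD, n = 3 each). An exact two-sided permutation test gave p = 0.1, and 0.1 after Benjamini-Hochberg adjustment over 3 such differences; 0.1 is the smallest p that 3 arrays against 3 allow. All 3 same-numbered pairs had the same sign (exact sign-flip permutation p = 0.25, the smallest for 3 pairs).

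**Figure D2:**
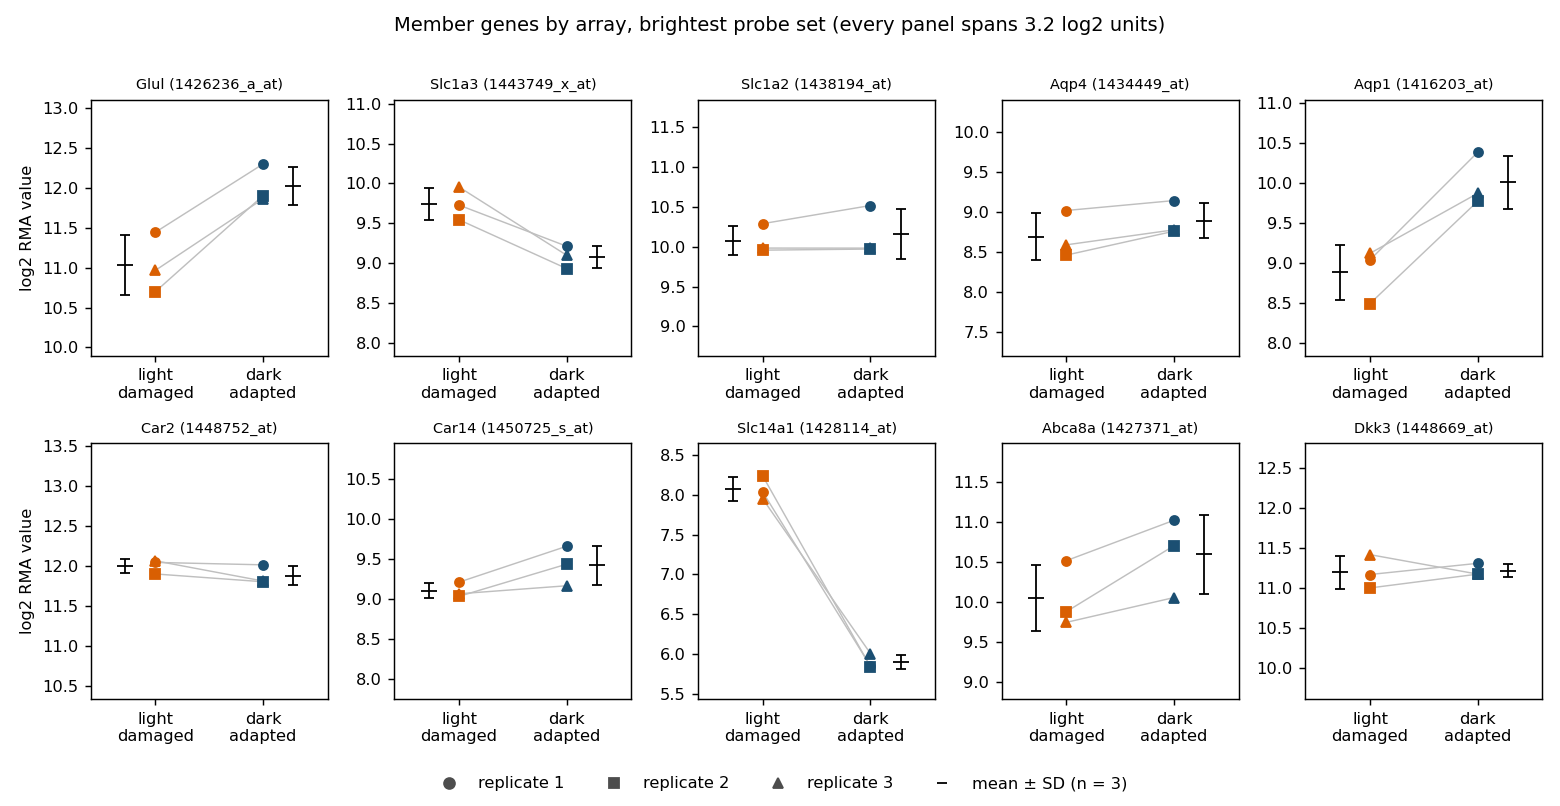
Log2 RMA values of each member's brightest probe set by array; markers give the replicate number, grey lines join arrays of 1 number, and black bars give the mean ± SD of 3 arrays. Slc14a1 separates the groups most widely (8.07 against 5.90), while Slc1a2, Car2 and Dkk3 overlap.

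Of 14 measured genes of glutamate uptake and turnover beside the members, none passed, 10 had positive changes and the median was 0.16. With the replicate block 4 rose and none fell. The 4 were Slc38a2, an amino acid carrier that takes up glutamine (0.73, limma adjusted p = 0.0165 with the block), Glud1, glutamate dehydrogenase (0.70, 0.0278), Aldh18a1, which starts proline synthesis from glutamate (0.60, 0.0358), and Slc7a11, the cystine-glutamate exchanger (0.48, 0.0468). Slc38a3, the glutamine carrier of Müller glia, had a change of -0.29 with overlapping groups (limma adjusted p = 0.867). Without the block Aldh18a1 had the smallest p of the list (limma adjusted p = 0.13).

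Promoter sequence was available for 6 of the 10 members in the RefSeq table of build GRCm38.p6. The 250 bases before the start of Glul and Aqp1, lower in light damaged retinas, and of Slc1a3, higher there, are shown because these 3 carry the opposed changes. They are written 5′ to 3′ on the gene's strand, and capitals mark matches, on either strand, to the STAT motif TTCNNNGAA, the AP-1 motif TGANTCA, the CRX/OTX motif TAATCC, the CCAAT box, the GC box GGGCGG or the TATA box TATAAA; none of these matches overlapped another.
Glul, chr1:153899679-153899928, plus strand: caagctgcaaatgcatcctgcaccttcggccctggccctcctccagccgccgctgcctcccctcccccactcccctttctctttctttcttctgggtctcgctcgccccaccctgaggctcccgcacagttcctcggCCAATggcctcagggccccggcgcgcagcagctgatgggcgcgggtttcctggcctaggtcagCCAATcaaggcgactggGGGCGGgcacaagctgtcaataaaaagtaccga
Aqp1, chr6:55336049-55336298, plus strand: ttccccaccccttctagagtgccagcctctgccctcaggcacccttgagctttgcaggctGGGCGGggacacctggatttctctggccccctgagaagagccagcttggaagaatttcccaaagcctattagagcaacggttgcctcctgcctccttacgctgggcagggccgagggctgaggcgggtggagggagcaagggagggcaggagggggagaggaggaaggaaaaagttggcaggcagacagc
Slc1a3, chr15:8710808-8711057, minus strand: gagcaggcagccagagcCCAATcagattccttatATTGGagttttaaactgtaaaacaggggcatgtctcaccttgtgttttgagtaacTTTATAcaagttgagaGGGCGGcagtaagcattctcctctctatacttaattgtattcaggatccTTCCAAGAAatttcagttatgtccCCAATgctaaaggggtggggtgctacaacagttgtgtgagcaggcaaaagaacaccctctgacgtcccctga
The Slc1a3 window held 1 match to the STAT motif, which starts 96 bases before the gene's start, and 7.18% of 27025 promoters of the same length hold one. It also held 3 CCAAT matches, 1 GC box and 1 TATA box, motifs found in 34.5%, 32.9% and 13.0% of promoters. The Glul window held 2 CCAAT matches and 1 GC box, and the Aqp1 window 1 GC box. No AP-1 or CRX/OTX match was in the 3 windows, where 6.87% and 6.38% of promoters hold one. The windows of Slc1a2, Car14 and Abca8a, not shown, were searched as well. Of these only Car14 held a match, 1 to the CRX/OTX motif, which starts 61 bases before the gene's start. GC content was 64.8% for Glul, 62.0% for Aqp1 and 44.8% for Slc1a3. These matches describe letters and do not show binding.

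Water handling was read by 4 probe sets. Aqp1, a water channel, had 1 probe set, 1416203_at, which read 9.04, 8.50 and 9.12 on light damaged arrays, against 10.39, 9.78 and 9.88 on dark adapted arrays. Every light damaged value lay below every dark adapted one. The change was -1.13 ± 0.23 (SE) with limma adjusted p = 0.0818 without and 0.00654 with the replicate block. It also passed when 1 probe set per gene was tested (limma adjusted p = 0.0461 over 18193 genes) and after repeated quantile normalization (limma adjusted p = 0.0243). The same held after centring on reference genes (limma adjusted p = 0.0174, and 0.0242 with Actb left out). It did not pass with an intensity trend (limma adjusted p = 0.0926) or when probe sets ending in _x_at or _s_at were left out (limma adjusted p = 0.0809). With any 1 array left out it did not pass either (limma adjusted p = 0.128 to 0.223). Rod markers were lower on the same arrays: the summed linear value of 6 markers ranged from 26522 to 33517 in light damaged and from 35078 to 44271 in dark adapted retinas, all 6 changes were negative with a median of -0.58, none passed, and 3 fell with the block. Nrl, the transcription factor of rod fate, had the largest of them (-1.04, limma adjusted p = 0.0672). Whether these rod values bear on the Aqp1 change was not tested.

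Aqp4 encodes the water channel of Müller cell endfeet and astrocytes. Its brightest probe set, 1434449_at, read 9.02, 8.46 and 8.59 on light damaged arrays, against 9.14, 8.76 and 8.78 on dark adapted arrays, and the groups overlapped. The change was -0.20 with a 95% interval of -0.64 to 0.23 (limma adjusted p = 0.902). It was -0.37 and -0.09 without light damaged replicates 1 and 2, and -0.08 without dark adapted replicate 1. The other probe sets had changes of -0.16 and 0.07, the second turning to -0.03 and -0.10 under repeated quantile normalization and reference centring (0.0057 with Actb left out), and none passed with the block. Within arrays, the log2 value of Aqp4 minus that of Aqp1 was -0.02, -0.04 and -0.53 on light damaged arrays, against -1.25, -1.02 and -1.10 on dark adapted arrays. The groups stood apart by 0.92 (exact two-sided permutation p = 0.1, adjusted over the 3 differences 0.1, the smallest possible).

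Of 19 measured genes for other aquaporins, potassium channels and the dystrophin complex that anchors channels in glial endfeet, none passed, and the median change was -0.06. With the replicate block 1 rose and 1 fell. Kcnj10, which encodes the Kir4.1 potassium channel of Müller glia, read 9.17, 8.56 and 8.42 on light damaged arrays, against 8.37, 7.91 and 7.56 on dark adapted arrays, a change of 0.77 (limma adjusted p = 0.375, and 0.00822 with the block). Dmd, dystrophin, read 7.67, 7.44 and 7.31 on light damaged arrays, against 8.40, 8.11 and 8.20 on dark adapted arrays, a change of -0.76 (limma adjusted p = 0.0737, and 0.00891 with the block). The groups stood apart for both genes, in opposite directions.

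Acid-base handling was read by 2 probe sets. Car2 encodes the cytosolic carbonic anhydrase II. Its probe set, 1448752_at, read 12.04, 11.90 and 12.06 on light damaged arrays, against 12.01, 11.80 and 11.81 on dark adapted arrays. The groups overlapped, and the change was 0.13 with a 95% interval of -0.16 to 0.42 (limma adjusted p = 0.913); it became 0.20 without dark adapted replicate 1, -0.03 after repeated quantile normalization, and -0.04 after centring on reference genes (0.06 with Actb left out). Car14 encodes a membrane-bound carbonic anhydrase with an extracellular active site, found in Müller glia and retinal pigment epithelium. Its probe set, 1450725_s_at, read 9.21, 9.04 and 9.07 on light damaged arrays, against 9.66, 9.44 and 9.17 on dark adapted arrays, and light damaged replicate 1 reached into the dark adapted range. The change was -0.32 with a 95% interval of -0.68 to 0.04 (limma adjusted p = 0.671, and 0.186 with the block), and -0.20 without dark adapted replicate 1. The difference Car2 minus Car14 was 2.83, 2.86 and 2.99 on light damaged arrays, against 2.35, 2.36 and 2.64 on dark adapted arrays, so the groups stood apart by 0.44 (exact two-sided permutation p = 0.1, adjusted 0.1, the smallest possible).

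**Figure D3:**
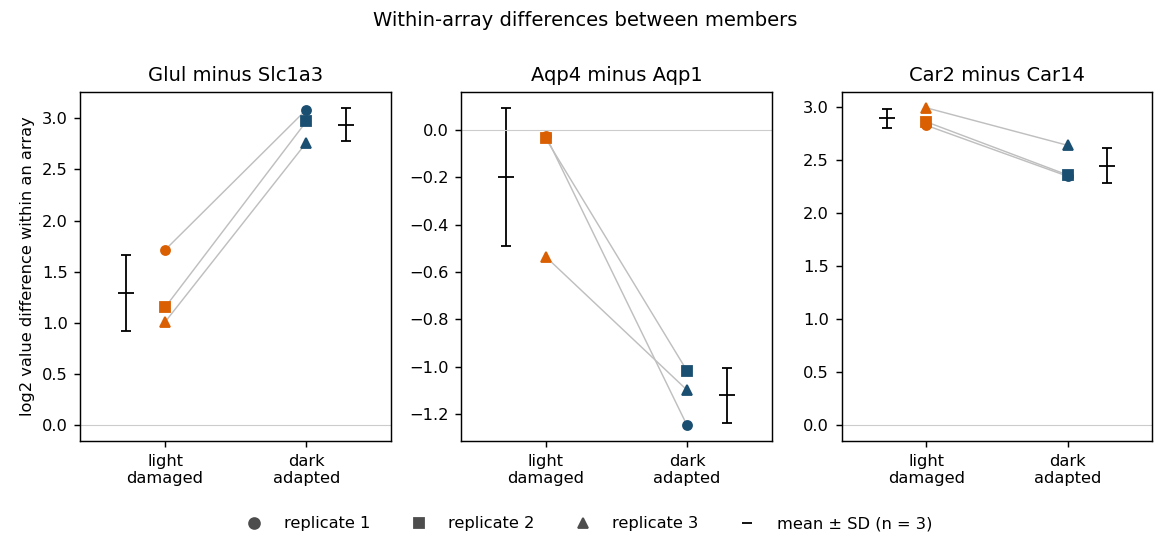
Difference of log2 values between 2 members on the same array, light damaged left and dark adapted right, with mean ± SD of 3 arrays in black. The groups stand apart in all 3 panels: 1.29 against 2.94 for Glul minus Slc1a3, -0.20 against -1.12 for Aqp4 minus Aqp1, and 2.89 against 2.45 for Car2 minus Car14. The pairs of genes were chosen with earlier results of these data known, and the differences restate the members' own changes.

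Among 23 other carbonic anhydrase, bicarbonate and proton carrier genes none passed with or without the replicate block, and the median change was 0.04. Slc4a3, a chloride-bicarbonate exchanger, had the smallest p of these genes (0.48 ± 0.21, SE, limma adjusted p = 0.594). Slc4a4, the sodium-bicarbonate carrier of Müller glia, had a change of -0.04 with overlapping groups.

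Urea handling gave the clearest member. Slc14a1 encodes a channel-like carrier that lets urea pass the membrane. Its brighter probe set, 1428114_at, read 8.03, 8.23 and 7.95 on light damaged arrays, against 5.85, 5.85 and 6.01 on dark adapted arrays. The other, 1448640_at, read 7.43, 7.47 and 7.50 on light damaged arrays, against 5.51, 5.69 and 5.49 on dark adapted arrays. The gap between the groups was far wider than the spread within them. The means were 8.07 ± 0.15 in light damaged and 5.90 ± 0.09 in dark adapted retinas for the first, and 7.47 ± 0.03 and 5.56 ± 0.11 for the second (SD, n = 3 each). The changes of 2.17 ± 0.13 and 1.90 ± 0.12 (SE) were 4.49-fold and 3.74-fold, with limma adjusted p = 0.00233 for each. Both passed without any 1 of the 6 arrays (limma adjusted p up to 0.023). Dark adapted values lay above the lower quartile of every array but below every array's median, and RMA compresses differences that start from such dim values.

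Red blood cells also carry this transporter, and their markers were read on the same arrays. Of 6 measured red blood cell markers none passed with or without the block, and their changes lay between -0.28 and 0.12. Their summed linear value ranged from 804 to 923 in light damaged and from 786 to 859 in dark adapted retinas, of which Ank1, the ankyrin gene of the red cell membrane, made up 66.8% to 77.5%. Without Ank1 the other 5 summed to 195 to 246 in light damaged and 205 to 261 in dark adapted retinas. Hba-a1, an alpha globin gene, read 4.70, 4.70 and 4.56 on light damaged arrays, against 4.59, 4.68 and 4.70 on dark adapted arrays, below the lower quartile of each array. Epb42, a red cell membrane protein gene, had the smallest p of the 6 (-0.28, limma adjusted p = 0.851).

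Of 8 other genes of urea transport and urea formation none passed, and the median change was -0.14. Of the 8, 3 read under the lower quartile on all 6 arrays, where a change could hardly be seen. Arg2, the mitochondrial arginase that releases urea from arginine, read 5.98, 5.58 and 5.65 on light damaged arrays, against 7.13, 6.45 and 7.26 on dark adapted arrays. The groups stood apart by -1.21 ± 0.23 (SE, limma adjusted p = 0.0686, and 0.00657 with the block). Slc14a2, the renal urea transporter gene, had a change of -0.27 with overlapping groups (limma adjusted p = 0.884).

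By their pattern over the 6 arrays, the genes most like Slc14a1 (1428114_at) among 18183 were Ankrd28 (Pearson r = 1.000), Clic1 and Tmbim1 (r = 0.999 each), all higher in light damaged retinas by 1.22, 1.51 and 1.62. Such r values rest mainly on the step between the groups.

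Abca8a, an ABC transporter gene enriched in mouse Müller glia, and Dkk3, a secreted protein of the Dickkopf family made by Müller glia, complete the members. Abca8a read 10.52, 9.88 and 9.74 on light damaged arrays, against 11.02, 10.71 and 10.05 on dark adapted arrays. The differences within same-numbered pairs were -0.51, -0.83 and -0.31, all negative, but the groups overlapped. The change was -0.55 ± 0.29 (SE) with limma adjusted p = 0.723, and 0.0576 with the block; it was -0.33 without dark adapted replicate 1 and ran to -0.82 without dark adapted replicate 3. Dkk3 read 11.17, 11.00 and 11.42 on its brightest probe set in light damaged retinas, against 11.31, 11.18 and 11.18 in dark adapted ones. Its 2 probe sets had changes of -0.02 and 0.04, with 95% intervals of -0.36 to 0.31 and -0.34 to 0.42; the second became -0.12 and -0.13 under repeated quantile normalization and reference centring (-0.03 with Actb left out).

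Of 11 other ABC transporters of subfamily A none passed with or without the block, with a median change of 0.01; Abca9 had the smallest p (-0.55, limma adjusted p = 0.523). Of 11 measured secreted Wnt inhibitors and their co-receptors none passed, and the median was -0.03. Of these 11, 4 read under the lower quartile on all 6 arrays, where a change could hardly be seen. Kremen1, a receptor of Dickkopf proteins, rose with the block (0.80, limma adjusted p = 0.0069, and 0.0798 without it).

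**Figure D4:**
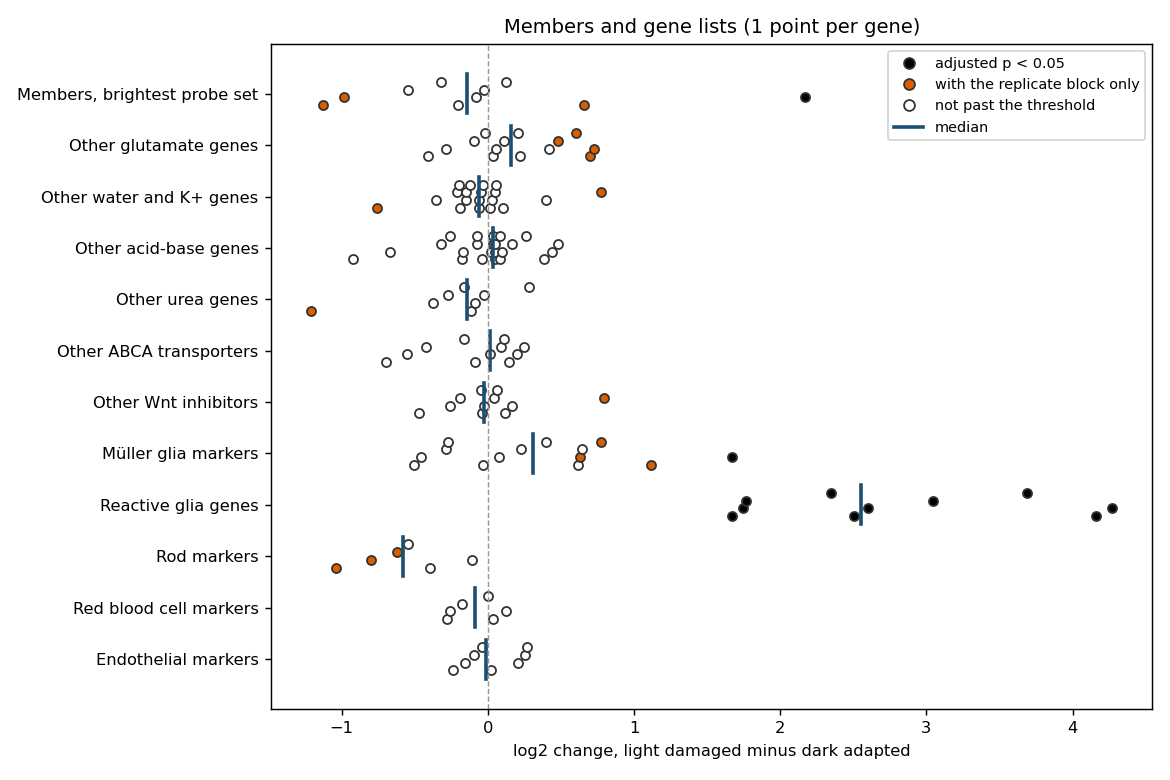
Log2 change of each gene's brightest probe set in the members and in gene lists, 1 point per gene, with the median of each list as a blue bar. Reactive glia genes, a list chosen with earlier results of these data known, lie at 1.67 or higher. The 10 members spread from -1.13 to 2.17. The urea, Wnt inhibitor and acid-base lists have medians between -0.14 and 0.04.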

How the data were processed

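Total retinal RNA was measured on Affymetrix arrays, and the authors deposited log2 values made with RMA, per the submitters' processing notes, which name no version. The log2 scale was judged from the range of 3.30 to 13.89, and the values were used unscaled. RMA scales the arrays to one another, so a change in total RNA would not be seen. The deposited arrays were still not fully equal, with upper quartiles from 7.41 to 7.67. Of 45101 rows, 64 control probe sets were removed; 34945 of the rest had 1 gene, 932 several and 9160 none in GEO's platform annotation. All 10 members matched RefSeq by gene identifier.

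Groups came from the sample titles. All probe sets were fitted with limma 3.58.1 (R 4.3.3), without a filter. In 10 simulations over 45037 probe sets the test recovered 26% to 42% of known log2 changes of 1, 84% to 96% of changes of 2 and 0% to 2% of changes of 0.5, with 4 to 8 false calls. The simulated arrays were independent, without the shared deviations of same-numbered arrays, and fewer probe sets were changed than were called here. These rates therefore need not hold for these data. Gene lists use each gene's brightest probe set. Same-numbered arrays correlated (all r over 0.1), so the numbers were taken as pairs; no label says this. The members, lists and tests were chosen with earlier results of these data known. Named genes beside the members were those past the threshold or with the smallest p in a list; others were chosen after their values were seen. The alternatives were the replicate block, leaving out each array, repeated quantile normalization, centring on 6 reference genes (and, chosen after seeing the data, without Actb), a level filter, an intensity trend, and other probe set choices.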

Additional observations from a re-analysis of the deposited data

How the results depend on the processing

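With the replicate block 6 member probe sets were higher and 3 lower, against 2 and 1 without it, and 2109 of all probe sets were called, against 458. Lower member probe sets numbered 3 after repeated quantile normalization and after reference centring, beside 167 and 143 of all 45037. Among probe sets above the median level 2 were lower (Glul and Aqp1) of 20 member probe sets, beside 67 of all 22518 there. With the mean of each gene's probe sets 1 of the 10 member genes was higher and 2 lower, beside 330 and 64 of all 18193 genes. With 1 probe set per gene 1 was higher and 1 lower, which was Aqp1 and not Glul, beside 316 and 49 of all 18193. With 1 array left out, 2 were higher each time, 0 to 1 lower, and 128 to 380 of all were called: 187, 165 and 128 without light damaged replicates 1, 2 and 3, and 163 without dark adapted replicate 2. Reference centring moved the median change of all probe sets to -0.16, from 0.01. The 6 reference genes had a mean change of 0.17, and 0.065 without Actb. Centring on the other 5, chosen after seeing the data, gave a median of -0.06, with 2 member probe sets higher, 3 lower and 406 of all called.

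Slc14a1 kept its call and direction in all 15 alternatives that hold 1428114_at, with changes of 2.00 to 2.23. The sign of small changes that never passed turned in several. After repeated quantile normalization these were Slc1a2 1433094_at (0.0074), Aqp4 1447745_at (-0.026), Car2 (-0.030) and Dkk3 1417312_at (-0.12). After reference centring they were Slc1a3 1439072_at (-0.10) and 1440491_at (-0.16), Slc1a2 1459014_at (-0.028), Aqp4 1447745_at (-0.10), Car2 (-0.044) and Dkk3 1417312_at (-0.13), by the shift itself; without Actb Slc1a3 1440491_at (-0.053) and Dkk3 1417312_at (-0.026) turned. The mean of the Dkk3 probe sets gave 0.0081. The cause of the other turns was not tested. With 1 array left out, changes ran from -0.013 to 0.13 and -0.068 to 0.074 for these Slc1a3 probe sets, and for Slc1a2 from -0.19 to 0.10 (1438194_at), -0.17 to 0.16 (1451627_a_at), -0.46 to 0.23 (1439940_at), -0.13 to 0.12 (1433094_at) and -0.064 to 0.28 (1459014_at). They ran from -0.11 to 0.26 for Aqp4 1447745_at, from -0.37 to -0.08 for 1434449_at and -0.23 to -0.07 for 1425382_a_at, from 0.09 to 0.20 for Car2, from -0.45 to -0.20 for Car14 and from -0.82 to -0.33 for Abca8a, and for Dkk3 from -0.13 to 0.075 (1448669_at) and -0.049 to 0.18 (1417312_at).

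The pairing was inferred from the same values. The block is printed wherever it changed a member's call. Glul minus Slc1a3, Aqp4 minus Aqp1 and Car2 minus Car14 kept their direction throughout (-1.86 to -1.50, 0.84 to 1.09 and 0.39 to 0.54 with 1 array left out), but with 3 arrays a group no p below 0.1 was possible. The number of arrays limits every value, and signal over background is not known from RMA values.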

Other observations

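The probe set that the annotation assigns to both Slc1a2 and Gm13872, 1433095_at, read 6.90, 7.50 and 6.96 on light damaged arrays, against 6.86, 7.23 and 7.82 on dark adapted arrays. The groups overlapped, and the change was -0.18 (limma adjusted p = 0.954). Sox2, a transcription factor of Müller glia, read 9.08, 8.74 and 8.66 on light damaged arrays, against 8.10, 7.41 and 7.62 on dark adapted arrays, a change of 1.12 (limma adjusted p = 0.0592, and 0.00285 with the replicate block). Rlbp1, the retinaldehyde binding protein of Müller glia, averaged 9.53 ± 0.43 in light damaged and 10.04 ± 0.47 in dark adapted retinas (SD, n = 3 each), and the groups overlapped (-0.50, limma adjusted p = 0.769). Clu, clusterin, read 12.52, 12.61 and 12.65 on light damaged arrays, against 12.12, 11.96 and 11.82 on dark adapted arrays, without overlap (0.63, limma adjusted p = 0.0888, and 0.0292 with the block). Both replicate 1 arrays held the highest Glul (1426236_a_at), Slc1a2 (1438194_at), Aqp4 (1434449_at), Car14 and Abca8a values of their groups.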
